A study of Mus musculus with 16 samples.

Results

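The 9 transcription factor genes described here were taken from the 21883 protein-coding genes in the RefSeq table of mouse build GRCm38.p6, whose chromosomes mm10 uses. They were Foxd3, Otx2, Pou3f1, Zic2, Zic1, Sox1, Olig2, Pax6 and Neurog2, and they were chosen by name as genes of the formative state of pluripotency and of early neural development. A window ran from 50 kb before to 50 kb after the annotated span of each gene. The 9 windows held 257 of the 397570 deposited ATAC-seq peaks. Peaks of different stages that overlapped by at least 1 bp were joined into 1 region, which gave 106 regions in the 9 windows, of 165616 regions in the genome. Coordinates of regions are those of mm10.

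The data came from chemical reprogramming of mouse embryonic fibroblasts (MEF), that is, conversion to induced pluripotent stem cells (iPSC) by small molecules without transgenes for the reprogramming factors. Open chromatin was mapped by ATAC-seq, in which the transposase Tn5 cuts accessible DNA and leaves sequencing adapters there. There were 16 samples in 8 stages of 2 samples each. These were fibroblasts at day 0, cells at days 2, 4, 6, 8, 10 and 12 of reprogramming, and iPSC. All stages shared 1 source: the labels give 129XOG2 embryos of embryonic day 13.5, whose fibroblasts were used at passages 1 to 3. As background, OG2 denotes a reporter in which Pou5f1 regulatory sequence drives GFP. Day 0 fibroblasts grew in serum medium. The medium was then changed to reprogramming medium, of a composition not given in the sources used here. Established iPSC were kept on feeder cells, whose share in the samples is unknown, in serum-free medium with LIF, the GSK3 inhibitor CHIR99021 (3 µM) and the MEK inhibitor PD0325901 (0.2 µM). In bulk samples such as these, a peak gained in few cells cannot be told apart from a weak peak in many.

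A single peak list was deposited per stage, so the values below have no spread between replicates, no comparison between stages was tested, and intervals on shares cover counting error only. The lists held between 31915 peaks at day 12 and 83022 at day 2. Their background pileups, a measure of depth recovered from the authors' fold and p-value, lay between 0.248 at day 12 and 3.08 at day 2. Both end points were close, with 49520 peaks and a background pileup of 1.90 in iPSC, and 49683 peaks and 1.96 at day 0. Marker genes differed between the end points in the direction of the labels. Of 16 naive pluripotency genes, 15 had more regions covered in iPSC than at day 0, as did 41.1% of all protein-coding genes. Of 16 fibroblast genes 13 had fewer, as did 31.6% of all protein-coding genes. These lists too were chosen with earlier results of these data known. The ends of 5 of 6 spermatid genes were covered in the day 0 list alone (Prm1, Prm2, Tnp1, Tnp2 and Smcp, but not Acr). The windows of Prm1, Prm2 and Tnp2 held 22, 21 and 22 regions with near-equal counts per list, so they are not taken as separate loci. The share of all genes with ends covered at day 0 alone is not given here. The part of this in the day 0 values was not tested.

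Formative pluripotency lies between the naive state of the early epiblast and the primed state that precedes gastrulation. Otx2 and Pou3f1 (Oct6) drive the exit from naive pluripotency and bind enhancers that are used in the epiblast. Foxd3 is a forkhead factor of the epiblast and later of the neural crest, and the zinc finger factors Zic2 and Zic1 act in the epiblast, the neural plate and the cerebellum. Sox1 is the earliest specific marker of neuroectoderm in the mouse. Olig2 specifies motor neuron and oligodendrocyte precursors, Pax6 patterns the eye, forebrain and spinal cord, and Neurog2 is a proneural factor that starts neuronal differentiation. In pluripotent cells such neural genes are commonly silent, with promoters carrying both active and Polycomb marks.

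The start sites are shown first, because some of these genes had a peak at the start and others had peaks only around it. RefSeq promoter windows of GRCm38.p6, from 250 bases before to 50 bases after a start, were given for 7 of the 9 genes, 11 windows in all. Each sequence below runs 5′ to 3′ along the gene's strand. Capitals mark matches on either strand to 1 of 10 short motifs, whose letters are given after the sequences. The Foxd3 window (chr4:99656049-99656348, plus strand) is shown as one that no list covered, the other 5 as windows covered in iPSC or in the intermediates.
Foxd3: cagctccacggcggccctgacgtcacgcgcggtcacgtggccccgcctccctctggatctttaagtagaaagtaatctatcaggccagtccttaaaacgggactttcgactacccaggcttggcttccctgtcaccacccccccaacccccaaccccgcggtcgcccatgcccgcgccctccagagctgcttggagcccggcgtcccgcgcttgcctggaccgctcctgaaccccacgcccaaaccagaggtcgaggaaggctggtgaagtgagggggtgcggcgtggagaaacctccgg
Otx2 window 2 (chr14:48665060-48665359, minus strand): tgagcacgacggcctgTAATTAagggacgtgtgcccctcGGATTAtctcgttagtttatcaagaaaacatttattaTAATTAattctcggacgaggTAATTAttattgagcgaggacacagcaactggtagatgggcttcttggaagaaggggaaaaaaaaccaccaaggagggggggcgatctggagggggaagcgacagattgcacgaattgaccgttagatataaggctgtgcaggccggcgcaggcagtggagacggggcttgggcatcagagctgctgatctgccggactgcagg
Zic1 (chr9:91365719-91366018, minus strand): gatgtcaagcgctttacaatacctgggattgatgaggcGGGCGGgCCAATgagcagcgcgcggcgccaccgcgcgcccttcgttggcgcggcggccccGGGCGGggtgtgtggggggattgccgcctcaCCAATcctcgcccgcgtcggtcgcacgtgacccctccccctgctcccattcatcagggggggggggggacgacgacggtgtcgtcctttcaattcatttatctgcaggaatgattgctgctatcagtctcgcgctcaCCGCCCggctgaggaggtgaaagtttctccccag
Sox1 (chr8:12395269-12395568, plus strand): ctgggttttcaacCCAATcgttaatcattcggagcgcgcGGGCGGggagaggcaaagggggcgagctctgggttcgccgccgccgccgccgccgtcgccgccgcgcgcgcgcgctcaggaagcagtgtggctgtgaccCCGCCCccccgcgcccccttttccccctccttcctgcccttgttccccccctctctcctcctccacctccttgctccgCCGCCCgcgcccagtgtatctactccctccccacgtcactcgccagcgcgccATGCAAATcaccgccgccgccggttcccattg
Olig2 (chr16:91225300-91225599, plus strand): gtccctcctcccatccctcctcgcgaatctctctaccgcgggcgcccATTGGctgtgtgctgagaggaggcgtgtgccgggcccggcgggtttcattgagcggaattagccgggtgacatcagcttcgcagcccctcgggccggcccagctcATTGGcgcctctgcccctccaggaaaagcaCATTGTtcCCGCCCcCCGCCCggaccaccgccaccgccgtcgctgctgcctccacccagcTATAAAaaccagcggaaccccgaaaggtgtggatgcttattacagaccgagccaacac
Neurog2 (chr3:127632886-127633185, plus strand): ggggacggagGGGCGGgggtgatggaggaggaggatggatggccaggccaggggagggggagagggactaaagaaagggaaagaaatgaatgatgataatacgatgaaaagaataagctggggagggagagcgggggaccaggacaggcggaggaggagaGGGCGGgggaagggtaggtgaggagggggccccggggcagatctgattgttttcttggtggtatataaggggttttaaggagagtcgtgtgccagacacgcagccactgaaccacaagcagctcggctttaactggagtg

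The 6 windows differed in letters as well as in coverage. The Foxd3 window held none of the 10 motifs. Otx2 window 2, at a start inside the gene, had 51.0% G and C and held 3 matches to the homeobox core TAATTA, which was present in 4.53% of all 21262 promoter windows. It also held 1 match to the motif of OTX type factors, spelled TAATCC, which was present in 6.42% of all windows. The Sox1 window was the richest in CpG, with 37 CpG in 300 bases, more than in 93.5% of all windows. It was the only one of the 11 with a match to the octamer ATTTGCAT, the site of POU factors, beginning 18 bases after the start; 1.66% of all windows had one. Olig2 held 1 match to the SOX type motif, spelled ACAATG (11.0% of all windows). It also held 1 TATA box, searched as TATAAA (12.6% of all windows). Its 2 GC boxes were searched as GGGCGG, which 46.2% of all windows contained, and its 2 CCAAT boxes by their name's letters, found in 38.2%. Zic1 held 3 GC boxes and 2 CCAAT boxes, and Neurog2 held 2 GC boxes. The motif of AP-1, searched as TGANTCA (6.99% of all windows), was in none of the 11. Nor was the E box, searched as CAGCTG (15.6% of all windows), or the ZIC type motif, searched as CAGCAGG (10.5%). No 2 matches overlapped in the printed windows. These matches are descriptions of letters and not of binding.

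No promoter window of the 7 genes was covered at day 0, although 49.3% of all windows were covered in that list. This leaves out Pou3f1 and Zic2, which had no window and each had a day 0 peak within 1 kb of an end. Of the 11 windows, 4 were those of Otx2. The day 2 list covered 5 of the 11 windows (56.4% of all windows), that of day 4 covered 3 (46.4%) and that of day 6 covered 2 (48.1%). The day 8 list covered 3 (50.1%), day 10 another 3 (51.5%), day 12 only 2 (39.1%) and iPSC 4 (52.5%). Depth bears on the day 2 and day 6 values. With pileups scaled down to the background of day 8, 1 window remained at day 2 (52.0% of all windows) and 0 at day 6 (43.8%). The iPSC list kept 4 (49.5%). Which windows were covered changed with the stage. The Sox1 window was covered by iPSC and day 10 peaks, the Olig2 window by those of iPSC and days 2 and 8. Otx2 window 2 had peaks from day 2 to day 10 and in iPSC, and Neurog2 had them in iPSC and in the lists of days 2, 4 and 12. Zic1 was covered in each of the 6 intermediate lists and in neither end point. Pax6 window 2, at a start inside the gene, was covered at day 2 alone. The windows in no list were those of Foxd3, Pax6 window 1 and Otx2 windows 1, 3 and 4.

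**Figure D1:**
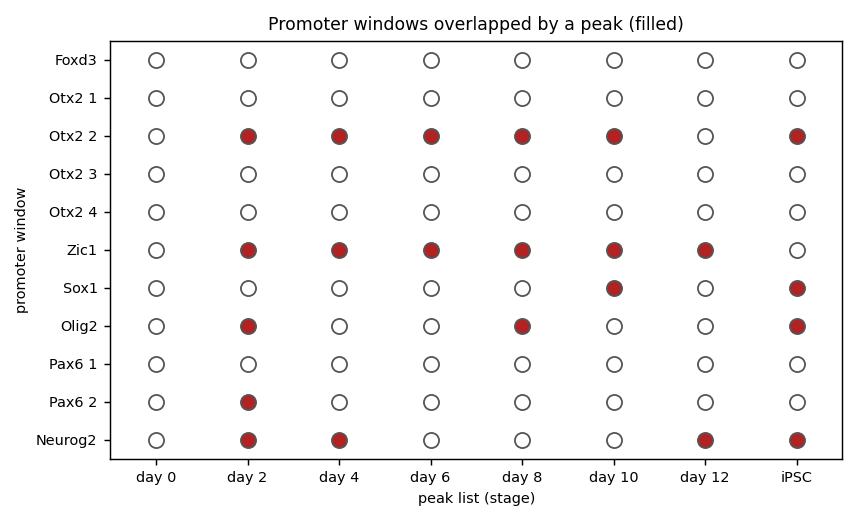
Promoter windows of 7 genes (rows; numbers tell apart the windows of Otx2 and of Pax6) by peak list (columns, in order of stage); filled circles mark windows that a peak overlaps by at least 1 bp. The day 0 column is empty, Zic1 is filled at days 2 to 12, and 4 windows are filled in iPSC. Pou3f1 and Zic2, each with a day 0 peak within 1 kb of an end, have no window and are not shown.

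Within 1 kb of either annotated end of a gene, 7 of the 9 genes had a peak in iPSC, 3 at day 0. These were 77.8% of the 9 genes in iPSC, against 58.6% of all protein-coding genes, and 33.3% at day 0, against 55.0%. The 7 genes in iPSC were Otx2, Pou3f1, Zic2, Zic1, Sox1, Olig2 and Neurog2, and the 3 at day 0 were Pou3f1, Zic2 and Neurog2. Between the end points, the day 2 list gave 5 genes (62.2%), day 4 gave 4 (51.6%) and day 6 gave 4 (54.5%). The day 8 list gave 4 genes (55.2%), day 10 gave 5 (56.4%) and day 12 gave 3 (44.3%). Foxd3 and Pax6 had no peak within 1 kb of an end in any of the 8 lists. Within 2.5 kb, all 9 genes had one in iPSC, 8 at day 2 and 4 at day 0. The share of all genes within 2.5 kb is not given here, so these counts have no background beside them. The place of the iPSC share above the background depends on where the summit lies: with the summit itself required within 1 kb, iPSC had 3 genes, 33.3% against 55.5% of all genes, and day 0 had 1, 11.1% against 52.0%. Both end points were then below the background.

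Over the 106 regions, the iPSC list covered the most. In iPSC 58 regions were covered, 54.7% (95% interval 44.8 to 64.4), against 29.6% of all regions. At day 0, 18 were covered, 17.0% (10.4 to 25.5), against 29.4% of all regions. Regions of 1 window are not independent of each other, so the intervals are no test of the members against the background. The day 2 list covered 46, or 43.4% against 49.9% of all regions, day 4 covered 20 (18.9% against 24.4%) and day 6 covered 28 (26.4% against 33.5%). The day 8 list covered 28 (26.4% against 23.5%), day 10 covered 26 (24.5% against 25.7%) and day 12 covered 19 (17.9% against 18.8%). With pileups scaled to the background of day 8, iPSC kept 44 regions (41.5%; 22.2% of all regions). Day 2 then kept 17 (16.0%; 33.8% of all), day 6 kept 14 (13.2%; 23.2%) and day 0 kept 10 (9.43%; 22.9%). The day 2 share therefore stood near the background as deposited and below it after scaling.

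**Figure D2:**
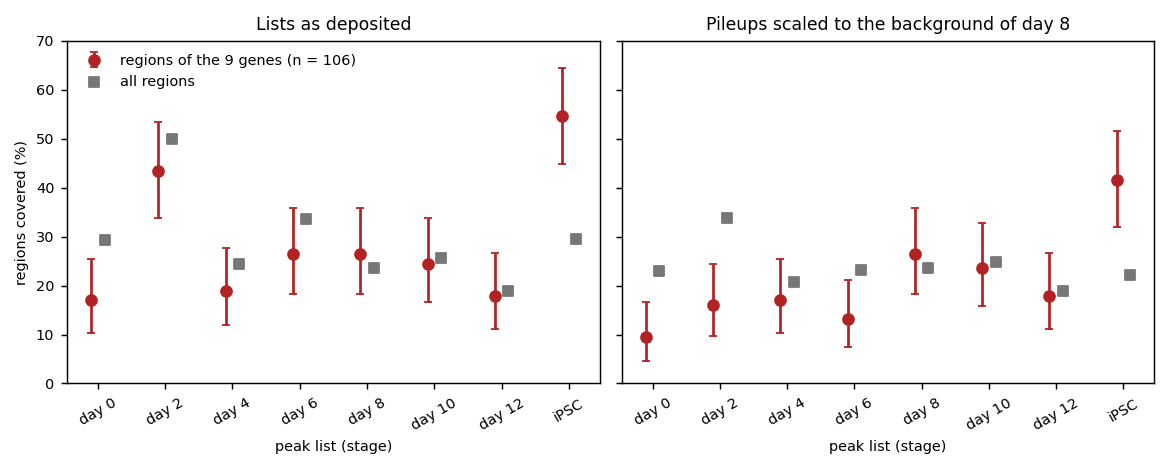
Share of regions covered (y, %) in each list (x, in order of stage) for the 106 regions of the 9 genes (circles, bars are exact 95% intervals for counting error) and for all regions (squares), as deposited and with pileups scaled to the background of day 8. The iPSC circle lies above its square in both panels, at 54.7% and 41.5%, and the day 0 circle below it, at 17.0% and 9.43%.

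By end point, 46 of the 106 regions were covered in iPSC and not at day 0, 43.4% (33.8 to 53.4), against 19.4% of all regions. The reverse held for 6 regions, 5.66% (2.11 to 11.9), against 19.3%. Both end points covered 12 regions, 11.3% against 10.2%, and days 2 to 12 alone covered 42, 39.6% against 51.1%. All 8 lists covered 6 regions, 5.66% against 5.42%, which is close to the background. A single list covered 68 regions, 64.2% against 52.0%; 28 of these, 26.4% of the 106 against 13.0% of all regions, were in iPSC alone. With regions remade from lists scaled to day 8, 39 of 73 regions were covered in iPSC and not at day 0 (53.4%, against 17.9% of all regions). The reverse held for 5 (6.85% against 18.7%). Scaled to the shallower background of day 12, these counts were 18 of 44 (40.9% against 13.1%) and 1 (2.27% against 14.2%).

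Of the 46 regions covered in iPSC and not at day 0, 18 were also covered in an intermediate list (39.1%, against 33.0% of all regions of that class). As deposited, the earliest such list was day 2 for 11 of them, day 4 for 1, day 6 for 2, day 10 for 3 and day 12 for 1. That order changed with scaling: with pileups scaled to day 8, 15 of the 46 were in an intermediate list (32.6%, against 28.8% of the class), and day 2 was the earliest for 3. Of the 18, 10 were covered both in days 2 to 6 and in days 8 to 12, 4 in the earlier days alone and 4 in the later days alone. By list as deposited, day 2 covered 11 of the 46 (23.9%, against 15.5% of all regions of the class), day 4 covered 6 (13.0% against 6.79%) and day 6 covered 10 (21.7% against 8.77%). The day 8 list covered 9 (19.6% against 15.1%), day 10 covered 10 (21.7% against 17.6%) and day 12 covered 3 (6.52% against 9.96%). The shares of these genes were thus above those of the class from day 2 to day 10 and below at day 12. Scaled to day 8, the counts from day 2 to day 12 were 3, 5, 2, 9, 10 and 3. Day 2 was then at 6.52% against 8.02% of the class, day 4 at 10.9% against 5.25% and day 6 at 4.35% against 4.39%. Day 8 was at 19.6% against 15.1%, day 10 at 21.7% against 17.1% and day 12 at 6.52% against 9.96%. The early lists then lay below those of days 8 and 10, as they also did in the whole class. Of the 6 regions of the reverse class, day 2 covered 5 (64.1% of all regions of the class), day 4 covered 2 (29.0%) and day 6 covered 4 (52.4%). Days 8 and 10 covered 1 each (14.4% and 13.0%), and day 12 covered 0 (3.64%). With 6 regions, these counts followed the order of the class.

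Counted by gene, 8 of the 9 genes had more regions covered in iPSC than at day 0, a direction that 41.1% of all protein-coding genes showed. Pou3f1 had fewer, as did 31.6% of all genes. The number of regions per window, 6 to 16 with a median of 12, equalled the median of 12 over all genes. In iPSC and at day 0, the counts were 10 and 3 regions for Zic2, 7 and 1 for Foxd3, 7 and 1 for Zic1, 7 and 2 for Sox1, and 7 and 3 for Pax6. They were 6 and 1 for Otx2, 6 and 0 for Olig2, 3 and 1 for Neurog2, and 5 and 6 for Pou3f1. Over all genes the median was 4.0 in both lists. In the better-scored 50% of each list and with scaling to day 12, the Pou3f1 counts were equal, at 2 and 2, and the Zic1 counts were 0 and 0; the other 7 genes kept more regions in iPSC.

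**Figure D3:**
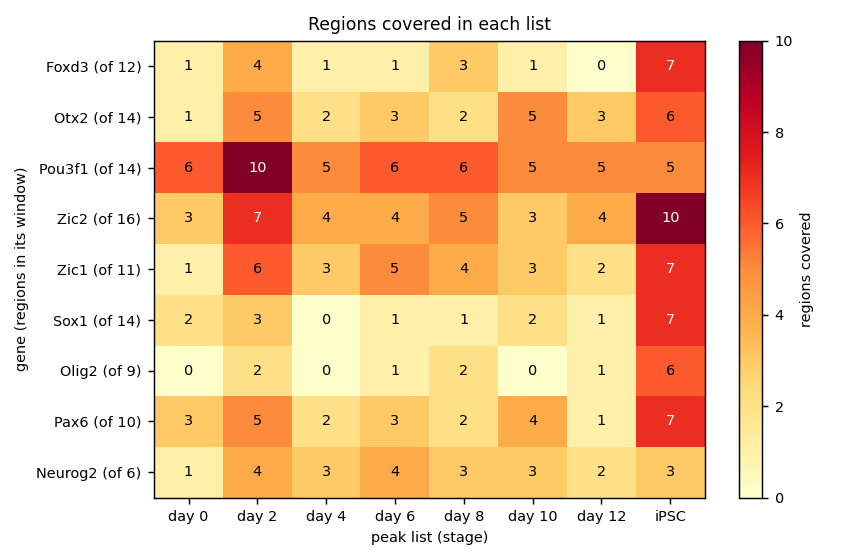
Number of regions covered for each gene (rows, with the regions in its window) in each list (columns, in order of stage); darker cells hold more regions. The iPSC column holds 5 to 10 regions for 8 genes and 3 for Neurog2, and Pou3f1 is the gene with the most regions at day 0, with 6.

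Foxd3 had its iPSC regions on both sides of the gene, and none over the gene itself. In iPSC alone were 6 of its 12 regions. Of these, the 4 with the highest fold lay 19.7 kb and 14.1 kb before the start (chr4:99636041-99637078 and chr4:99641820-99642510) and 14.0 kb and 19 kb after it (chr4:99670155-99670521 and chr4:99675127-99675540). Their summit pileups in iPSC were 68, 42, 64 and 56 fragments. The authors' fold, the ratio of pileup to local background with 1 added to both, was 7.51, 7.52, 7.99 and 8.97. All 4 ranked above at least 81.0% of the peaks of the iPSC list, the last above 91.9%. A region 4.27 kb after the start, just past the gene (chr4:99659757-99661384), did the opposite: every list from day 0 to day 10 covered it, and neither day 12 nor iPSC did. Its pileups were 13, 21, 15, 22, 10 and 9 fragments in those 6 lists. Within the gene there was 1 region, at day 8 alone, with 10 fragments. In the day 12 list Foxd3 had no region at all, in the shallowest list.

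Otx2 had the single highest-ranked iPSC peak of the 9 genes, and its 4 best-ranked iPSC peaks lay away from its promoters. Its median iPSC rank was above 78.7% of the list, beside 81.0% for Foxd3. The region 42.4 kb before the start (chr14:48709335-48710723) was covered by every list from day 4 onwards, iPSC included, with pileups of 9, 11, 8, 12, 5 and 60 fragments. Its iPSC fold of 10.6 was the highest of all 58 iPSC values and ranked above 97.6% of the iPSC list, against 16.6% to 43.3% of their own lists at days 4 to 12. The region 33.6 kb before the start (chr14:48700863-48701585) had 99 fragments in iPSC, the highest iPSC pileup of the 9 genes, and 11 at day 10. Another 3 regions were in iPSC alone: 49.2 kb and 7.11 kb before the start, with 37 and 16 fragments, and 12.9 kb after it, beyond the gene's far end, with 75. The reverse was seen at 1 region, 12 kb before the start (chr14:48679171-48680170): it had 31 fragments at day 0, with 42 and 16 at days 2 and 6, ranked above 83.0% of the day 0 list, and was in no other list.

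Within Otx2, the only region (chr14:48664642-48666660) spans the inner start whose window is printed above, and its summit was placed differently by stage. At days 2, 4, 6 and 10 the summit lay between 2537 and 2622 bp downstream of the outermost start, next to the inner start with the homeobox cores. At day 8 the peak of highest fold had its summit at 1992 bp, and in iPSC at 1188 bp, in a peak 1654 bp wide. The pileups were low throughout: 22, 12, 13, 7 and 8 fragments from day 2 to day 10 and 24 in iPSC. Its iPSC peak ranked above 15.3% of the iPSC list only.

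Pou3f1, which encodes a POU factor of the epiblast and of Schwann cells, was the exception of the 9. No region of its window was covered in iPSC and not at day 0, and 4 of its 14 regions were in all 8 lists, of 6 such regions for the 9 genes together. RefSeq gave no promoter window for it here, so its distances run from the lower-coordinate end of the span along the chromosome. The region at that end (chr4:124656705-124657747) had its summit between 137 and 236 bp below the end in every list. Its pileups were 29, 72, 27, 26, 29, 37 and 13 fragments at days 0 to 12, in order, and 21 in iPSC. Within its own list the peak ranked highest at day 10 (above 84.9%) and day 8 (81.5%), and lower in iPSC (45.6%) and at day 0 (31.8%). The region also overlaps the end of the lncRNA gene Gm2164.

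Of the other constant regions of the Pou3f1 window, those 35.9 kb and 52.1 kb above the end overlap the ends of the neighbours Utp11, a ribosome biogenesis gene, and Fhl3, a LIM domain gene. The other lay 43.1 kb above the end, within the span of Fhl3, with 27, 127, 36, 60, 18, 26 and 12 fragments at days 0 to 12 and 28 in iPSC. The region at Utp11 had the highest fold of all member regions at days 2, 4, 6, 8 and 10, with 14.8 at day 8. Nearer to Pou3f1, 2 regions were each covered at part of the stages. The first lay 6.86 kb above the end (chr4:124664102-124664900) and was covered at days 0, 2, 4 and 6, with 22, 61, 12 and 19 fragments. It overlaps an end of the lncRNA gene Gm38545. The second lay 12.4 kb below the end (chr4:124645000-124645432) and was covered at days 8, 10 and 12, with 15, 16 and 16 fragments. No list covered both, but a separate day 2 region of 13 fragments began just above the second (chr4:124645457-124645956). The second region ranked above 91.0% of the day 12 list, where its fold of 9.86 was the highest of the 9 genes, and it was not in the iPSC list.

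**Figure D4:**
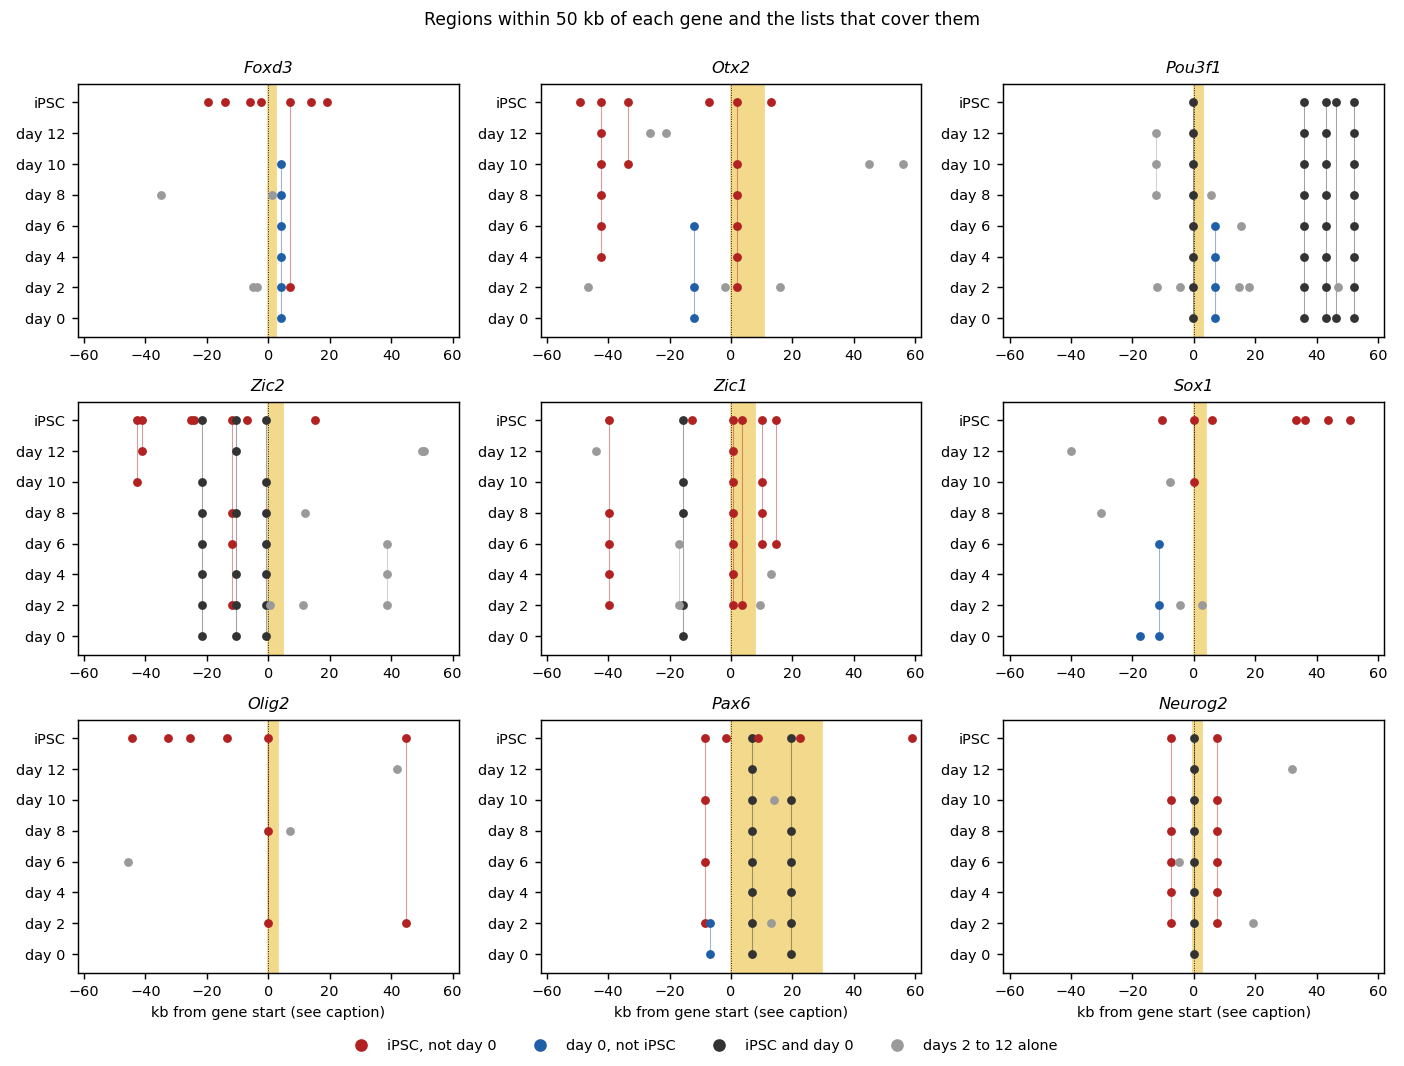
Positions of the 106 regions (x, kb from the gene's start, negative before it; for Pou3f1 and Zic2 from the lower-coordinate end of the span) and the lists that cover them (y, in order of stage), with a thin line joining the lists of 1 region and the gene's span shaded. All genes but Pou3f1 and Neurog2 have more marks in the iPSC row than in any other row, and 4 regions of Pou3f1 run through all 8 rows.

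Zic2 had the most regions and the most iPSC regions, 10 of 16, and most of the iPSC peaks were of low rank. Its distances also run from the lower-coordinate end of the span. The region just below that end (chr14:122473760-122475306) was covered in all lists but day 12, with pileups of 14, 46, 25, 32, 13 and 15 fragments at days 0 to 10 and 81 in iPSC. Its summit lay between 1040 and 1205 bp below the end in each of the 7 lists. The iPSC peak ranked above 66.4% of its list and the day 0 peak above 5.3%. This region overlaps the end of the lncRNA gene 2610035F20Rik, and another, 10.4 kb below, overlaps the end of Zic5, the neighbouring ZIC gene. The region at Zic5 had 59 fragments in iPSC and 15 at day 0. Of the 7 regions in iPSC and not at day 0, the one 41.0 kb below the end stood out with 60 fragments and a rank above 69.1%; it was also in the day 12 list, with 3 fragments. The other 6 included 5 that ranked at or below 12.9% of the iPSC list.

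In the intermediates alone, Zic2 had 6 regions, of which 2 were larger. The first lay 38.5 kb above the end (chr14:122513550-122514183) and had 29, 11 and 22 fragments at days 2, 4 and 6. It overlaps an end of the pseudogene Gm18143. The second overlapped the gene itself, at day 2 alone, with 30 fragments at a fold of 3.29. The other 4 had between 4 and 15 fragments in 1 list each.

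Zic1 had 7 of 11 regions covered in iPSC against 1 at day 0, and all 7 iPSC peaks ranked in the lower part of the list, the best above 37.5%. The region at the start (chr9:91364384-91366024) overlaps an end of the neighbouring paralog Zic4 and was covered in every list but day 0. Its pileups were 24, 16, 17, 16, 23 and 5 fragments at days 2 to 12 and 20 in iPSC. The summit lay 402, 327 and 356 bp inside the gene at days 2, 4 and 6, then 117, 151 and 145 bp before the start at days 8, 10 and 12, and 1015 bp inside the gene in iPSC. The iPSC peak ended before the promoter window began, which is why that window counts as uncovered in iPSC. The only Zic1 region covered at day 0 lay 15.6 kb before the start, with 12 fragments there and 18 in iPSC. The summits were apart, 15185 bp before the start at day 0 and 16041 bp before it in iPSC. A region 39.8 kb before the start (chr9:91404935-91406263) had 20, 7, 10 and 6 fragments at days 2, 4, 6 and 8 and 8 in iPSC.

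Sox1 had 7 of its 14 regions covered in iPSC, and 6 of them were in iPSC alone. These 6 lay 10.3 kb before the start and 5.85, 33.3, 36.1, 43.7 and 50.9 kb after it. Their iPSC pileups were 11, 17, 18, 27, 28 and 13 fragments. The highest-ranked of them, 43.7 kb after the start (chr8:12438647-12439792), stood above 67.7% of the iPSC list. The region at the start (chr8:12395131-12395989) had 28 fragments in iPSC and 8 at day 10, with the summits 15 bp before and 34 bp after the start. Both day 0 regions of Sox1, 17.4 and 11.4 kb before the start, were weak, with 11 and 10 fragments, and neither was in iPSC. No list from day 2 to day 8 and no day 12 peak covered the start. At day 4 Sox1 had no region at all.

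Olig2 had no region at day 0, 4 or 10 and 6 of 9 in iPSC. The region at the start (chr16:91224937-91225914) had 50 fragments in iPSC at a fold of 6.77, 18 at day 2 and 9 at day 8. The iPSC summit lay 186 bp before the start, within the printed window, against 392 bp before it at day 8 and 167 bp after it at day 2. The highest-ranked Olig2 region lay 44.7 kb after the start at an end of Olig1, the neighbouring paralog, with 44 fragments in iPSC (above 83.4% of the list) and 17 at day 2. In iPSC alone were 4 regions before the start, 13.5, 25.4, 32.6 and 44.4 kb away, with 11, 23, 11 and 14 fragments.

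Pax6 differed from Sox1 and Olig2 in that its constant regions lay inside the gene and its outer start had no peak. The region 6.73 kb after the start (chr2:105674510-105676749) was in all 8 lists, with 19, 59, 20, 23, 25, 24 and 6 fragments at days 0 to 12 and 25 in iPSC. The iPSC fold there was 2.39, above 0.158% of the iPSC list, against 19.7% at day 0. These were different peaks that did not overlap, with summits 6715 bp after the start in iPSC and 7394 bp at day 0. The region 19.4 kb after the start (chr2:105687349-105689214) was in all lists but day 12, with 31 fragments in iPSC and 15 at day 0. In iPSC alone were 4 regions: 1.71 kb before the start with 21 fragments, 8.72 and 22.5 kb after it, inside the gene, with 60 and 54, and 58.9 kb after it with 19. A region 8.51 kb before the start, within the span of the lncRNA gene Paupar, had 13, 12 and 8 fragments at days 2, 6 and 10 and 20 in iPSC. The adjacent region 6.97 kb before the start had 12 fragments at day 0 and 15 at day 2 and was not in iPSC.

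Neurog2 had the fewest regions, 6, and 3 of them were covered in at least 6 lists. The region over the gene (chr3:127631867-127634796) was in all 8 lists, with 16, 30, 11, 14, 12, 13 and 7 fragments at days 0 to 12 and 39 in iPSC. It joins peaks at different places. In iPSC and at days 0, 8 and 10 the summit lay 1165 to 1187 bp after the start, and at day 2 1070 bp after it. At days 4 and 6 the peak of highest fold had its summit 235 and 598 bp after the start, and at day 12 229 bp before it. The regions on either side, 7.29 kb before the start (chr3:127625345-127626341) and 7.47 kb after it (chr3:127639763-127641451), were each covered by the 5 lists from day 2 to day 10 and by iPSC, and not at day 0. The first had 32, 14, 15, 11 and 17 fragments and 41 in iPSC, and it overlaps an end of the lncRNA gene Gm40147. The second had 15, 14, 13, 13 and 14 and 15 in iPSC. At day 12 neither was covered, in the list of the lowest background.

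Ranked within the iPSC list, the 58 iPSC values had a median above 39.8% of the list, below its middle. By summit pileup they lay above the middle, with a median of 26.0 fragments against 21 for the whole list. Ranks above 75% were held by 11 of them and ranks below 25% by 20. The 11 came from Foxd3 (4), Otx2 (4), Olig2 (2) and Pou3f1 (1). Zic2, Zic1, Sox1, Pax6 and Neurog2 had none. The 46 regions in iPSC and not at day 0 had a median width of 733.0 bp, against 594.0 bp for all regions of that class, and 30 of them were centred over 10 kb from the start. Of the 46, 4 lay within 1 kb of an end of their gene. Peaks at day 0 had a median rank above 24.1% of that list, with 3 of 18 above 75%.

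**Figure D5:**
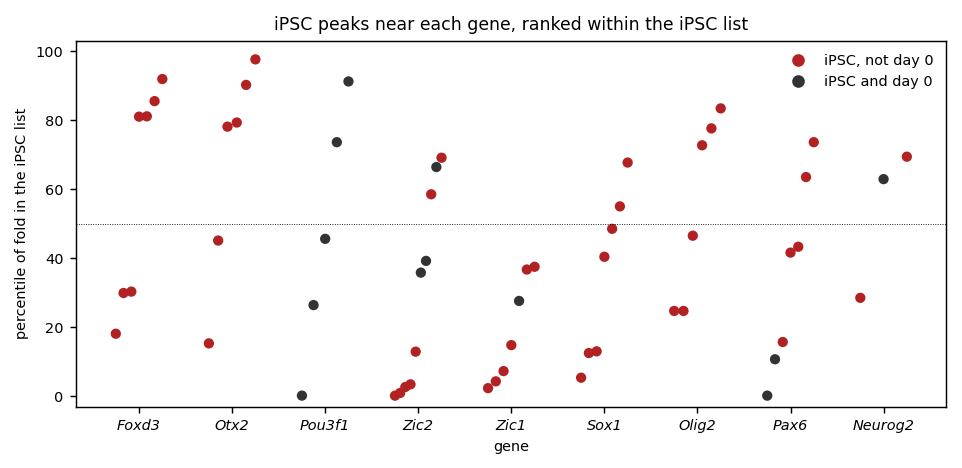
Rank of each covered region within the iPSC list (y, percentile of the authors' fold) by gene (x); each point is 1 region, red where it was not covered at day 0. Foxd3, Otx2, Pou3f1 and Olig2 reach above 80, while no point of Zic1 exceeds 37.5.

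Of the 42 regions of days 2 to 12 alone, 39 were held by a single list (92.9%, against 65.3% of all regions of that class). Day 2 alone held 17 (40.5% against 24.1%), day 12 held 8 (14.1% of the class) and day 8 held 6 (14.3% against 7.25%). Day 10 alone held 4 (9.52% against 9.71%), day 6 held 3 (7.14% against 5.86%) and day 4 held 1 (2.38% against 4.29%). None was covered both in days 2 to 6 and in days 8 to 12, as 6.0% of the class were. The earlier days held 23 (54.8% against 54.3%) and the later days 19 (45.2% against 39.7%). Without the long day 2 list, 26 such regions were left. At day 12, 8 of the 19 covered regions were in that list alone (42.1%), close to the 38.3% of all its regions, and those 8 had 3 to 7 fragments. The 3 regions in more than 1 list were the day 8 to 12 region of Pou3f1, the day 2 to 6 region of Zic2, and 1 of Zic1, 16.8 kb before the start, at days 2 and 6.

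Wider lists of genes of the same states, chosen with earlier results of these data known and without the 9 members, had smaller median differences. Over all protein-coding genes, 41.1% had more regions covered in iPSC than at day 0 and 31.6% had fewer. Of 24 formative genes, 19 had more and 5 had fewer, with a median difference of 1.5 regions, against 5.0 for the 9 genes and 0.0 for all genes. The largest differences towards iPSC were at Zic5 (12 against 3, in a window shared with Zic2), Tcf15 (10 against 4) and Tcf7l1 (22 against 16), which encodes a Wnt pathway repressor. Those towards day 0 were at Etv4 (4 against 10), an ETS factor, Fgf5 (1 against 6), the classical marker of the formative epiblast, and, tied, Cdh2 (8 against 10) and Dnmt3a (10 against 12), genes of N-cadherin and of a DNA methyltransferase. Of 33 neural genes, 26 had more, 5 equal numbers and 2 fewer, with a median difference of 2.0. Zic5 and Zic4 led, whose windows overlap those of Zic2 and Zic1, followed by Olig3 (5 against 0), a dorsal neural tube factor, and Rax (7 against 2), an eye field factor. Those with fewer were Dlx2 (3 against 6) and Sox21 (4 against 5). The formative and neural lists share Sox3, Pou3f2 and Zic5.

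Other genes with a like pattern were sought by the sum of absolute differences between the counts of covered regions in the 8 lists. A single nearest gene was found for 4 members: Pdlim7 with Pou3f1 and Tsx with Olig2, each at a sum of 1, Gm46977 with Otx2 at 2 and H2al2a with Zic2 at 3. The others had ties. Pax6 had Lmbrd2 and Saa3 at a sum of 1, and Neurog2 had Cdpf1, Mfge8, Mtln and Rpl22l1 at 2. Sox1 had Dcstamp, Oas2, Slc26a5 and Xpnpep2 at 3, and Zic1 had Igfbpl1, Lct, Nsun6 and Prss54 at 4. Foxd3 had 7 genes at a sum of 5, Lep among them. Each sum is over 8 lists, and nothing but the counts was compared.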

How the data were processed

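ATAC-seq was measured in 16 samples of 8 stages, 2 per stage. The submitters' processing notes name MACS2 2.1.2 among the tools, beside deepTools 3.4.3, fastp 0.20.1, SAMtools and Bowtie2 2.2.5, and build mm10. Their settings, any shift for the Tn5 insertion, and how both samples of a stage were joined into 1 list are not given in the sources used here. For each stage the authors deposited a single list of peaks. Each peak has a position, a score (10 times the −log10 q-value, cut to a whole number), a fold (the ratio of summit pileup to local background), a −log10 p-value, a −log10 q-value and a summit offset in bases, all as the authors' caller wrote them, and these were used only to rank, filter or describe peaks within a list. The highest q-value of any deposited peak was 0.05. The number of fragments at each summit (pileup) was recovered from the deposited fold and −log10 p-value, within 0.001 on the −log10 p scale for 99.95% or more of any list's peaks; the recovery was tested on simulated peaks. The lowest local background of a list, its background pileup, grows with depth. Depth in reads per sample is unknown.

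Peaks on chromosomes 1 to 19, X and Y were merged where they overlapped by at least 1 bp, and a list covers a region where it has a peak in it. A region can therefore join peaks that do not overlap each other. Where a list had more than 1 peak in a region, the peak of highest fold is given. Ranks are percentiles of the fold within a list. Shares have exact Clopper-Pearson 95% intervals. Scaling multiplied each summit pileup of a deeper list by the ratio of background pileups and kept the peak where the scaled value passed the p-value threshold of the shallower list, with no random draw; lists below the target's background were left as they were. With 1 list per stage no test could be run. Python 3.11.15, pandas 2.3.3, numpy 2.4.6 and SciPy 1.17.1 were used.

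Gene spans and promoter windows were from RefSeq, GRCm38.p6. All 9 genes were in the gene table, which gives no strand; 7 were in the promoter table, which does. The 9 genes and the wider gene lists were chosen with earlier results of these data known, and patterns of the whole series are no independent support for them. All 9 genes are named. Their regions are given where at an end of the gene, in all lists, of highest fold in a list, or covered at 1 end point and not the other. For likeness, the gene or tied genes with the smallest sum of differences were taken. In wider lists, up to 3 genes with the largest difference in each direction are named. Neighbours named have an end within 1 kb of a region, but some lncRNA genes that do are not named. Regions singled out for their lists among days 2 to 12, the use of the promoter windows and the unions without day 2 or day 12 were chosen after the values were seen. Other alternatives were lists of equal length, the better-scored 50% of the peaks, scaling to day 8 or day 12, joining peaks only where 50% of the shorter one is shared, windows of 20 and 100 kb, and, for gene ends, 2.5 kb and the summit's position.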

Additional observations from a re-analysis of the deposited data

How the results depend on the processing

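No paired analysis was possible because each stage had 1 deposited list and no test was made, and for the same reason no replicate was left out. The direction held in all the alternatives run: regions covered in iPSC and not at day 0 outnumbered the reverse, and at least 7 of the 9 genes had more regions in iPSC, with Pou3f1 at fewer or equal numbers throughout and Zic1 at equal numbers under 2 settings. The sizes did not hold, and the cause was not tested where depth or window size does not set it by construction. Requiring a summit inside the region gave the same regions by construction, and joining peaks over 50% of the shorter one moved no count by over 1.5 times.

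The 106 regions became 40 in the better-scored 50% of each list, 61 at equal list length, 44 with scaling to day 12, 68 with 20 kb windows and 171 with 100 kb windows. The 46 regions in iPSC and not at day 0 became 25 in the better-scored 50%, 18 with scaling to day 12 and 29 with 20 kb windows. The 6 of the reverse class became 1 in the better-scored 50%, 3 at equal length, 1 with scaling to day 12 and 15 with 100 kb windows. The 12 covered at both became 2 in the better-scored 50%, 3 at equal length, 5 and 2 with scaling to days 8 and 12, and 7 and 22 with 20 and 100 kb windows. The 6 in all 8 lists became 2, 3, 3, 2, 3 and 10 under the same 6 settings. The 42 of days 2 to 12 alone became 12, 21, 24, 23, 26 and 70, and 26 without the day 2 list.

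Genes with a covered end were fewer in the better-scored 50% of each list: 4 in iPSC, 0 at day 0, 2 in each list from day 2 to day 10 and 1 in the day 12 list. Equal list length gave 1 at days 0 and 2 and 2 at day 6. Scaling to day 8 gave 3 for day 2 and 2 for day 6. Scaling to day 12 gave 3 for iPSC, 0 for day 0, 1 for days 2 and 6, 2 for day 4 and 3 for day 10. With the summit within 1 kb, the counts were 3 for iPSC, 1 for day 0, 2 for day 6 and 3 for day 10. Within 2.5 kb of an end, they were 9 for iPSC, 4 for day 0, 8 for day 2 and 7 for day 8. Days 4 and 6 then had 6 each, day 10 had 7 and day 12 had 3. The 2.5 kb counts are given without a share over all genes. Of 115 values under an alternative, 56 moved by over 1.5 times. Depth limits the day 12 list most: its weakest peaks had 3 fragments, and the absence of a region from it is not detectable as a loss at this depth.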

Other observations

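Other lists of genes give the setting of the 9 genes, beside all protein-coding genes, of which 41.1% had more regions in iPSC than at day 0 and 31.6% fewer. Of 10 epithelial genes, 5 had more regions covered in iPSC than at day 0 and 5 fewer, with a median difference of 0.0 regions; Grhl2, a regulator of epithelial junction genes, had 8 in iPSC against 1, and Krt8, a keratin gene, 4 against 10. Of 8 extraembryonic endoderm genes, 6 had more and 2 fewer, with a median difference of 3.5; Sox17 had 5 against 0, with 7 at each of days 10 and 12. The naive pluripotency list had a median difference of 6.5 regions and the fibroblast list of -3.5. In the naive list, Nr5a2, an orphan nuclear receptor gene, had 13 regions in iPSC and 0 at day 0, while Klf4 had 5 against 6. In the spermatid list, 1 gene had more regions in iPSC and 5 had fewer. Of the 5, Prm1, Prm2 and Tnp2 had nearly the same counts and are not taken as separate loci.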
